A study of Mus musculus with 33 samples.

Results

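The transcriptome of mouse cardiomyocytes, the muscle cells that make the heart beat, was compared between 3 libraries with a cardiomyocyte-specific knockout of Ptpmt1 and 2 control libraries of the PHT line. They were chosen by the genotype in their labels, and they are 5 of the 9 libraries of that line and of 33 samples in the series, which covers 4 mouse lines. The PHT line was bred to combine the Ptpmt1 knockout with a knockout of Hri, and the knockouts described here carried the Ptpmt1 knockout alone. The other PHT libraries are 2 doubles, labelled with the cardiomyocyte-specific Ptpmt1 knockout and an Hri knockout of no stated cell type, and 2 labelled as a cardiomyocyte-specific Hri knockout only. They are used here to estimate the spread and to ask whether the effect differs with the Hri label. From the FST line, which combines the Ptpmt1 knockout with a mutation of the alpha subunit of eIF2, 3 knockouts of Ptpmt1 alone and 3 controls were set beside them. The labels give nuclear RNA as the molecule and a ribosomal RNA depleting kit for the libraries. No label names the Cre driver of the knockout, the alleles that the controls carry or the age of the mice.

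Ptpmt1 is a phosphatase of the inner mitochondrial membrane. It makes phosphatidylglycerol, the precursor of cardiolipin, which is the signature lipid of that membrane and holds respiratory complexes and cristae in shape. When mitochondria are damaged, the protease Oma1 cleaves Dele1, which activates the kinase Hri (gene Eif2ak1), and Hri phosphorylates eIF2. Bulk translation then falls while the transcription factor Atf4 is translated and switches on genes of amino acid synthesis, amino acid import and tRNA charging, a programme called the integrated stress response (ISR).

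The 3 knockout libraries held 10739569, 19405261 and 13399359 reads in genes, against 14411965 and 11251680 in the 2 controls. Values below are the deposited normalized counts, given as replicates 1, 2 and 3 of the knockout and then replicates 1 and 2 of the control. Knockout replicate 1 had the expression pattern of a male, and knockout replicates 2 and 3 and both controls that of females. Cardiomyocyte markers were abundant, and 10 such genes took 2.19%, 2.15% and 2.23% of all values in the knockouts and 2.32% and 2.08% in the controls. Markers of fibroblasts, endothelium and epicardium were also present, fibroblast genes at 0.158% to 0.184% in the knockouts and 0.154% to 0.201% in the controls. Red cell markers differed most: 13 genes took 0.352%, 0.327% and 0.0748% in the knockouts and 0.486% and 0.411% in the controls. All 13 were lower on average in the knockout, with a median log2 fold change of -1.12, and 0 were called, while 0 of the 13 were at 0. The embryonic globin Hbb-y, named after its values were seen, was at 21315.5, 19436.7 and 4800.9 in the knockouts and 32349.0 and 25851.7 in the controls. In bulk samples, fewer cells of a type and less RNA per cell cannot be told apart. No pair of replicates agreed within sampling noise, since the chi-square of their reads over its degrees of freedom was 5.65 to 8.84 among knockouts and 7.77 between controls, and each counted as 1 sample.

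The targeted gene was low in every knockout library. Ptpmt1 (chr2:90908716-90918258, minus strand, GRCm38) had normalized counts of 64.8, 41.7 and 40.0 in the knockouts, while the controls had 241.2 and 288.6. The groups did not overlap, and the highest knockout was knockout 1. The log2 fold change was -2.44 ± 0.22 (SE; adjusted p = 6.17e-05), and it lay between -2.66 and -2.32 whichever of the 5 libraries was left out. The exons of Kbtbd4, on the other strand (chr2:90904740-90911626), overlap those of Ptpmt1, and the strand setting of the counting is not given, so reads of the pair may be shared. Kbtbd4 was at 299.0, 307.0 and 307.1 in the knockouts and 296.7 and 294.6 in the controls (0.04 ± 0.12, adjusted p = 0.999). The nearby gene Ndufs3, a complex I subunit, was at 1244.5, 1210.1 and 1226.5 in the knockouts and 1276.4 and 1292.9 in the controls (-0.07 ± 0.09, adjusted p = 0.999).

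Across the 14965 genes tested, 45 were called, which is 0.301% of them, 42 higher (0.281%) and 3 lower (0.02%). Called means an adjusted p under 0.05 in limma, and fold changes are on the log2(value + 1) scale, which understates the change of low genes. At an unadjusted p under 0.05 there were 717 genes. The labels do not say that the libraries come from separate animals, so these p-values measure the spread between the samples only. The 42 rises had a median log2 fold change of 0.94, against 0.0 over all genes tested, and ran from 0.46 to 6.0, with 20 above 1 and 11 above 2. In all 45 called genes the 3 knockouts and the 2 controls did not overlap, which was also so for 23.6% of all genes tested. Most rises belonged to ISR-type lists of regulators, amino acid enzymes, transporters and tRNA synthetases: 29 of the 42 did. These lists held 10, 14, 17, 17, 17 and 21 of the 14965 genes tested. They were chosen with earlier results of these data known, so the count is a description and not a test. Falls were few, and only Ptpmt1 among them was a member of a mitochondrial list.

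**Figure D1:**
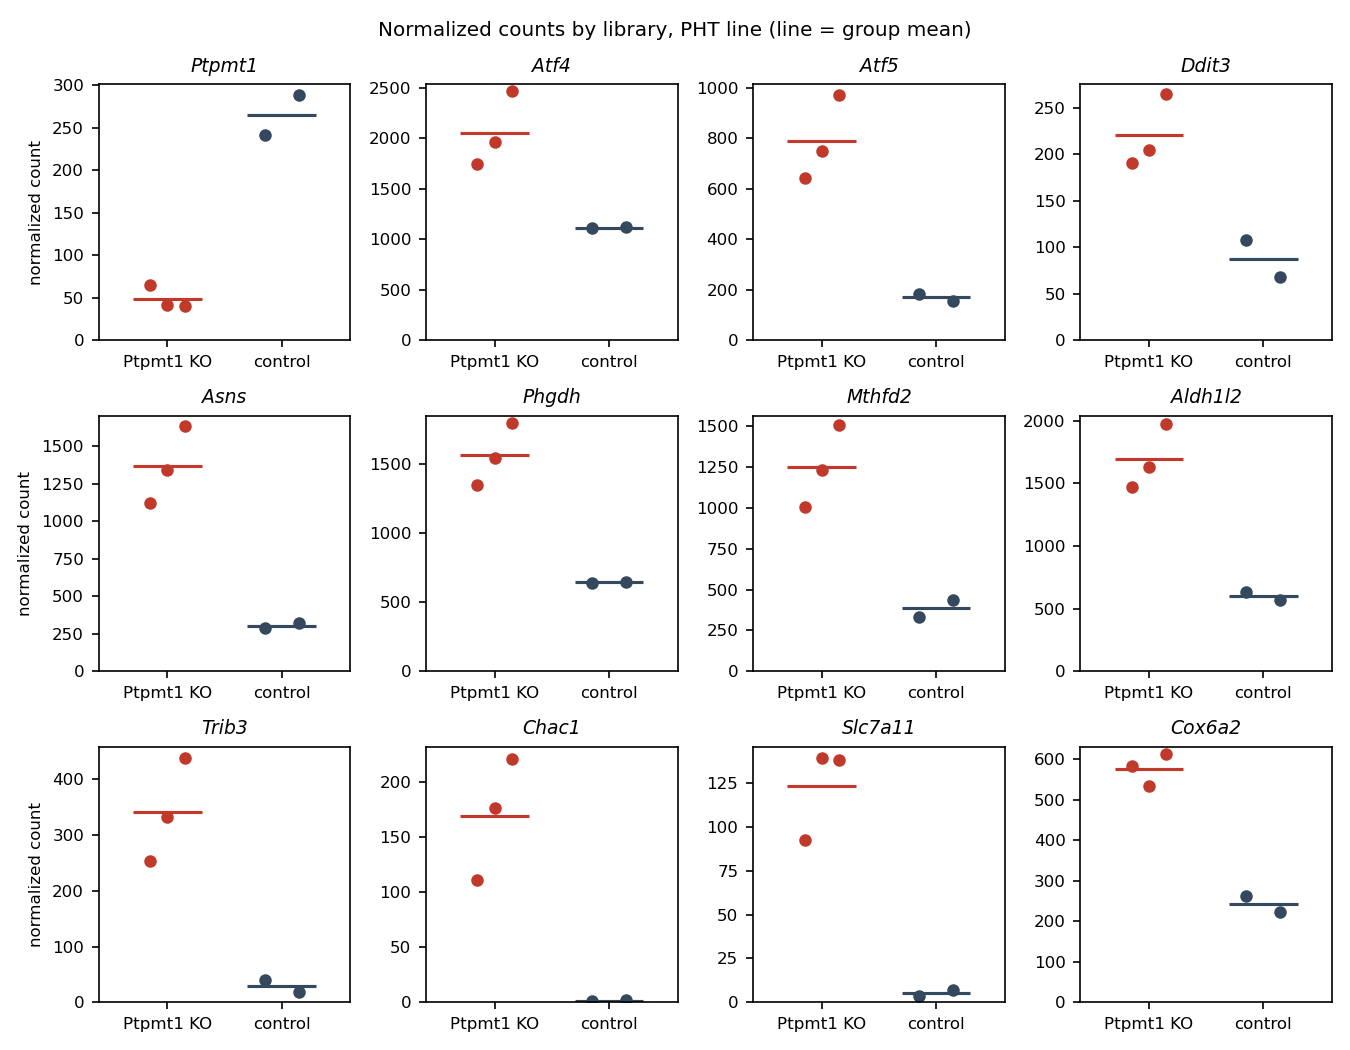
Normalized counts (vertical axis, from 0) of 12 genes in the 3 Ptpmt1 knockout libraries (red, left) and the 2 control libraries (dark, right) of the PHT line, with a line at each group mean. Ptpmt1 is below the controls in every knockout library and the other 11 genes are above them, with Atf4 at 1744.0 to 2466.0 in the knockouts and 1116.3 to 1118.8 in the controls.

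Within the knockout group the 3 libraries were not equal in the response. Knockout 3 was the highest of the 3 in 34 of the 42 risen genes, against 34.3% of all genes tested, and knockout 1 was the lowest in 33 of the 42, against 33.1%. Both held at once in 29 of the 42, against 17.0% of all genes. The median log2 difference between knockout 3 and knockout 1 was 0.30 over the 42 genes and 0.0 over all genes. Knockout 3 was also the library with the lowest share of red cell markers (0.0748%), and knockout 1 the one with the male pattern. Ptpmt1 itself was at 64.8, 41.7 and 40.0 in knockouts 1, 2 and 3. The part of any of these in this ranking was not tested. Asns, which makes asparagine, shows this ranking at 1121.1, 1340.7 and 1637.7 in the knockouts, while the controls had 292.0 and 319.7. Rims3 and the noncoding Gm49448, described further on, were highest in knockout 1 and lowest in knockout 3.

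The calls leaned on single libraries to unequal degrees. Without knockout 1, when the 4 libraries compared all have the female pattern, 41 genes were called and 39 of the 45 were kept. Without knockout 3 there were 42 calls and 35 of the 45 were kept. Without knockout 2 there were 24 calls, without control 1 there were 27 and without control 2 there were 21, which kept 24, 22 and 17 of the 45. The direction of every one of the 45 stayed the same in these 5 fits. There were 16 genes called in all 5 fits: Ptpmt1, Chac1, Trim66, Slc7a3, Gm9008, Atf5, Asns, Mthfd2, Bcat1, Aldh1l2, Phgdh, Cox6a2, Slc7a5, Herpud1, Aldh18a1 and Sars. The other 29 lost the call in at least 1 fit.

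**Figure D2:**
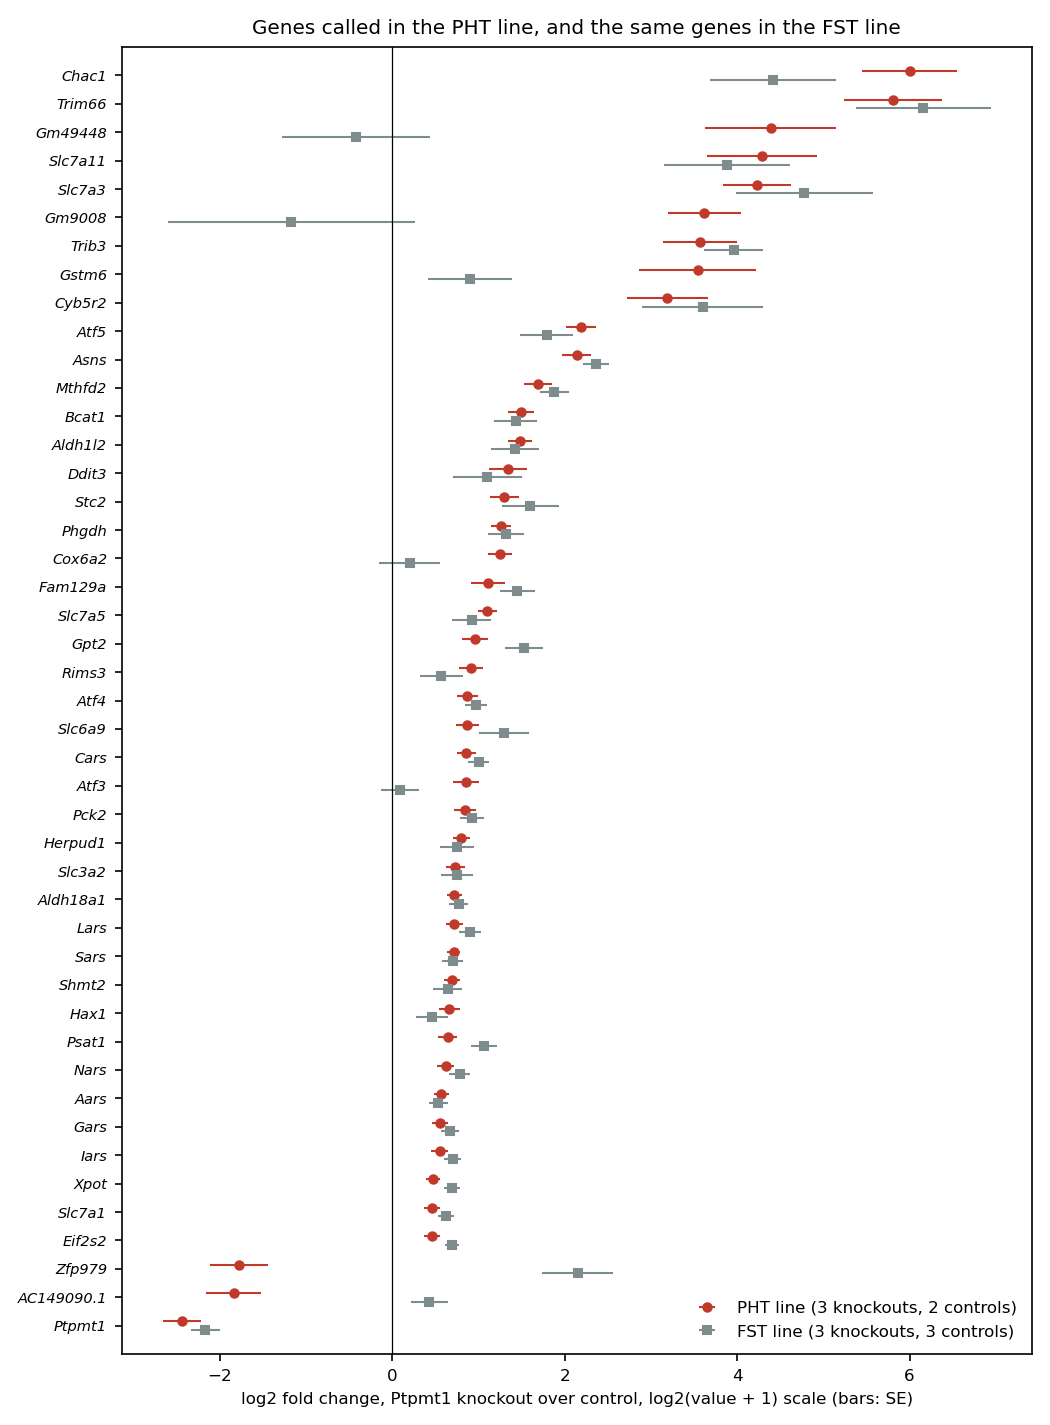
Log2 fold change of the Ptpmt1 knockout over control (horizontal axis, log2(value + 1) scale, bars are SE) for the 45 genes called in the PHT line (red circles), with the same genes in the FST line (grey squares). The 42 rises run from 0.46 (Eif2s2) to 6.0 (Chac1) in the PHT line, and Zfp979 is on opposite sides of 0 in the 2 lines.

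Among the transcription factors of the ISR, 4 of 10 tested rose: Atf4, Atf5, Atf3 and Ddit3. All 10 were above 0, with a median log2 fold change of 0.80. Atf4, the central activator, had 1744.0, 1964.2 and 2466.0 in the knockouts and 1116.3 and 1118.8 in the controls. The controls were nearly equal and every knockout stood above them (0.87 ± 0.12, adjusted p = 0.00191), though the call was lost without control 1 or control 2 (adjusted p at most 0.0654). Atf5, a related factor that regulates mitochondrial stress genes in mammals, had 642.8, 751.4 and 972.4 in the knockouts and 182.7 and 157.4 in the controls. That was the firmest change among the regulators, at 2.19 ± 0.17 (adjusted p = 3.1e-05). Ddit3, which encodes the factor CHOP, had 190.6, 205.1 and 265.1 in the knockouts and 107.4 and 68.0 in the controls. The controls differed from each other here, and the rise (1.34 ± 0.22, adjusted p = 0.00907) lost its call without control 2 or knockout 2. Atf3, a repressor of the same family that also counts among immediate early genes, had 231.7, 281.0 and 317.1 in the knockouts and 163.0 and 141.9 in the controls (0.85 ± 0.15, adjusted p = 0.0248). Its call was lost without control 1, control 2, knockout 2 or knockout 3.

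The other members of that list stood above the controls on average without passing the test. Cebpg, a dimer partner of Atf4, had 497.0, 597.5 and 697.3 in the knockouts and 390.9 and 428.2 in the controls (0.53 ± 0.14, adjusted p = 0.287). Cebpb, another C/EBP factor, was at 54.8, 73.8 and 67.0 in the knockouts and 47.1 and 48.9 in the controls (0.42 ± 0.27, adjusted p = 0.999). Jdp2, a member of the AP-1 family, differed by 0.76 ± 0.30 (adjusted p = 0.961), and Xbp1, the factor of the unfolded protein response, by 0.25 ± 0.13 (adjusted p = 0.999).

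Of 14 tested genes that feed back on the ISR or restrain growth, 3 rose: Chac1, Trib3 and Stc2. Another 10 of the list were above 0 without a call, and the list's median was 0.46. Chac1 degrades glutathione and is a late ISR target. It had 110.9, 176.4 and 221.1 in the knockouts and 0.942 and 2.39 in the controls, which amounts to 568 reads against 3, a ratio of 110 (exact 95% interval 37.5 to 536, counting error only). On the log2 scale the rise was 6.0 ± 0.55 (adjusted p = 6.17e-05). Trib3, a pseudokinase that binds and damps Atf4, had 252.9, 332.3 and 437.2 in the knockouts and 40.5 and 17.9 in the controls. Every knockout stood far above both controls, which differed from each other (3.57 ± 0.43, adjusted p = 0.000669, and 0.0503 without control 2). Stc2, a secreted glycoprotein, had 237.9, 289.2 and 357.1 in the knockouts and 122.5 and 112.1 in the controls (1.30 ± 0.17, adjusted p = 0.00186), a call lost without control 2.

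Sesn2, which restrains the growth kinase mTORC1, did not pass the test, with 401.1, 434.8 and 567.2 in the knockouts and 287.3 and 274.3 in the controls (0.72 ± 0.15, adjusted p = 0.0867). Vldlr, a lipoprotein receptor, was at 0.49 ± 0.11 (adjusted p = 0.138), and Eif4ebp1, a translation repressor, at 0.32 ± 0.10 (adjusted p = 0.537). Cdkn1a, the cell cycle inhibitor p21, was at 0.42 ± 0.15 (adjusted p = 0.806). Ppp1r15a, the subunit that returns eIF2 to its dephosphorylated form, was at 0.11 ± 0.15 (adjusted p = 0.999). It was named after its values were seen.

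The promoters of the called genes were searched for the C/EBP-ATF response element, TGATGNAA on either strand, which Atf4 binds together with C/EBP proteins. RefSeq promoters on GRCm38.p6, 250 bases before to 50 after the start, were at hand for 32 of the 42 risen genes. Of these, 12 held the element (37.5%), against 305 of 11280 tested genes with a promoter (2.7%) and 1219 of 27025 promoters in all (4.51%). They were Chac1, Slc7a11, Trib3, Cyb5r2, Asns, Atf3, Pck2, Herpud1, Hax1, Aars, Iars and Gars. The ER stress element, a longer motif of the unfolded protein response, was searched only in the exact form CCAATN9CCACG. That form was in 0 of the 32, in 20 of the tested genes (0.177%) and in 37 promoters of all (0.137%). Other forms and near matches were not counted, and the Herpud1 promoter printed below holds such a form, as described further on. The 6 promoters below belong to the risen genes of the ISR panel that held the element, and the capitals mark it. Coordinates and strands are, in the order of the lines, chr1:191183284-191183583 (minus), chr2:152344011-152344310 (minus), chr2:119350992-119351291 (plus), chr6:7693160-7693459 (minus), chr3:50443564-50443863 (minus) and chr8:94386179-94386478 (plus).
Atf3: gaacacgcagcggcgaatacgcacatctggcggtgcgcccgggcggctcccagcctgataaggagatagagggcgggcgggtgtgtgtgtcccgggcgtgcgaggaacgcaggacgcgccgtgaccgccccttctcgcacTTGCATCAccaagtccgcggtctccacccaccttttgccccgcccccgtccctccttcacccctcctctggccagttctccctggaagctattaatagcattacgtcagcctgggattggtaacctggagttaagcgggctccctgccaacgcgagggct
Trib3: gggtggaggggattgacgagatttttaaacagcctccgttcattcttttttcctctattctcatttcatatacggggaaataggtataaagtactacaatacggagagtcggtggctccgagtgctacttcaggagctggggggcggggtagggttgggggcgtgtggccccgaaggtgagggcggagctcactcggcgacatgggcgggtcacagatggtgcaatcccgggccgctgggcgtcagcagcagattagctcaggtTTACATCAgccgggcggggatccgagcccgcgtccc
Chac1: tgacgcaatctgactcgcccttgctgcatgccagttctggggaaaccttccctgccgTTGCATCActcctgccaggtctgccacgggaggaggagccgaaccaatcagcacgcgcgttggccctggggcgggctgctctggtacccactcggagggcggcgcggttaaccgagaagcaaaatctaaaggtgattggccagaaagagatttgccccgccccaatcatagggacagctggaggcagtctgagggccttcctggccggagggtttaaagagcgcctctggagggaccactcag
Asns: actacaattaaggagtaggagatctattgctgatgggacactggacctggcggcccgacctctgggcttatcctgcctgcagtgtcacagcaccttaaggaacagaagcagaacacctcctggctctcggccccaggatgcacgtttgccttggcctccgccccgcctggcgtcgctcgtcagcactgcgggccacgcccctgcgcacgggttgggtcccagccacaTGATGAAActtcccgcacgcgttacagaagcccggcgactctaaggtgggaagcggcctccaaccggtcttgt
Slc7a11: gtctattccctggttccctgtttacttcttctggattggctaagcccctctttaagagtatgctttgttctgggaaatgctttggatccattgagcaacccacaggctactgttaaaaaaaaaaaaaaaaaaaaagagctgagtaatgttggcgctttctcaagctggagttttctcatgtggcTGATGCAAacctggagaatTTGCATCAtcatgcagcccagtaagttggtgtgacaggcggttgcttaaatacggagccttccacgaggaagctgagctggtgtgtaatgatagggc
Herpud1: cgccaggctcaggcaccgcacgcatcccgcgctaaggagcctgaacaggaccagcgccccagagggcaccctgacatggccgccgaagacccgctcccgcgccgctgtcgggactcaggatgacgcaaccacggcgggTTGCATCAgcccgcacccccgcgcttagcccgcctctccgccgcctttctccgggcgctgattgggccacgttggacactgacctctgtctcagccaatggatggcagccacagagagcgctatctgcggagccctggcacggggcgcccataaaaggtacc
Relative to the annotated start, the first base of the element lay at -110 in Atf3, 14 in Trib3, -193 in Chac1, -23 in Asns, -66 and -47 in Slc7a11 and -112 in Herpud1. Slc7a11 held it as 2 copies, and in Trib3 it lay just after the start. A match describes these letters only and is not evidence of binding.

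Serine synthesis and mitochondrial one-carbon metabolism, which pass carbon from glucose to folate, had 5 risen members among 17 tested, and the list's median was 0.11. Phgdh, the first enzyme of serine synthesis, had 1349.1, 1541.0 and 1791.7 in the knockouts and 642.4 and 648.9 in the controls (1.26 ± 0.12, adjusted p = 6.97e-05). Psat1, the second enzyme, had 943.0, 1028.2 and 1134.5 in the knockouts and 626.4 and 699.0 in the controls (0.64 ± 0.11, adjusted p = 0.0135). Phgdh kept its call whichever library was left out, and Psat1 lost it without control 1, control 2, knockout 2 or knockout 3. Psph, the last enzyme of serine synthesis, was above both controls in all 3 knockouts, at 220.5, 245.4 and 260.1 against 148.8 and 130.0, and was not called (0.79 ± 0.17, adjusted p = 0.107).

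The mitochondrial folate enzymes moved by unequal amounts. Mthfd2, the mitochondrial methylene-tetrahydrofolate dehydrogenase, had 1005.3, 1229.9 and 1504.6 in the knockouts and 335.3 and 434.2 in the controls (1.69 ± 0.16, adjusted p = 6.17e-05). Aldh1l2, which oxidises mitochondrial formyl-tetrahydrofolate, had 1468.7, 1632.6 and 1970.8 in the knockouts and 632.1 and 571.3 in the controls (1.48 ± 0.14, adjusted p = 6.17e-05). Both kept the call in every fit that left out a library. Shmt2, which splits serine to glycine in mitochondria, had 1425.1, 1493.8 and 1727.7 in the knockouts and 994.7 and 922.0 in the controls (0.69 ± 0.09, adjusted p = 0.00229), and lost the call without control 2. Mthfd1l, which releases formate and was named after its values were seen, was at 0.16 ± 0.09 (adjusted p = 0.999). Amt of the glycine cleavage system was at 0.42 ± 0.14 (adjusted p = 0.764), and Tyms, the thymidylate synthase of the nucleus and cytosol, at -0.16 ± 0.09 (adjusted p = 0.999).

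Of 17 tested enzymes of asparagine, alanine, proline, aspartate and related amino acids, 4 rose, and the median was 0.22. Asns, whose counts stand above, rose by 2.14 ± 0.17 (adjusted p = 3.1e-05). Bcat1, the cytosolic transaminase of branched-chain amino acids, had 554.3, 581.1 and 592.2 in the knockouts and 165.8 and 250.5 in the controls (1.49 ± 0.15, adjusted p = 0.000144). The knockouts were close to each other there, unlike in Asns. Aldh18a1, which makes the precursor of proline in mitochondria, had 1739.0, 1729.0 and 2005.8 in the knockouts and 1070.1 and 1135.5 in the controls (0.72 ± 0.09, adjusted p = 0.000804). Gpt2, the mitochondrial alanine transaminase, had 323.9, 356.2 and 433.2 in the knockouts and 174.3 and 204.0 in the controls (0.96 ± 0.15, adjusted p = 0.00907), a call lost without control 1, control 2 or knockout 2. Cth, which makes cysteine from cystathionine, was higher in all 3 knockouts, at 61.0, 74.5 and 100 against 24.5 and 21.5 in the controls, and missed the threshold (1.70 ± 0.37, adjusted p = 0.0924). Pycr1, the next enzyme of proline synthesis, was at 0.84 ± 0.19 (adjusted p = 0.135), and Pycrl at 0.29 ± 0.12 (adjusted p = 0.999).

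Amino acid transporters gave 6 rises among 17 tested, with a median of 0.43. Slc7a11, which imports cystine for glutathione synthesis, had 92.2, 138.8 and 138.1 in the knockouts and 3.77 and 7.16 in the controls (4.29 ± 0.64, adjusted p = 0.00519), a call lost without control 1, control 2 or knockout 2. Slc7a3, a carrier of cationic amino acids, had 236.7, 311.1 and 377.2 in the knockouts and 16.0 and 14.3 in the controls (4.23 ± 0.40, adjusted p = 6.57e-05). Its control level was low and even, and the call held in every fit that left out a library. Slc7a1, a related carrier, had 1935.8, 2111.2 and 2372.0 in the knockouts and 1528.9 and 1561.3 in the controls (0.46 ± 0.09, adjusted p = 0.0326), and lost its call without control 1, control 2, knockout 2 or knockout 3. Slc7a5 and Slc3a2 form the heterodimer that imports leucine. Slc7a5 had 1259.4, 1223.1 and 1621.7 in the knockouts and 630.2 and 631.0 in the controls (1.10 ± 0.11, adjusted p = 0.000134). Slc3a2 had 1010.3, 1172.5 and 1317.5 in the knockouts and 704.6 and 694.2 in the controls (0.73 ± 0.11, adjusted p = 0.00504), a call lost without control 1 or control 2. Slc6a9, a glycine transporter, had 393.6, 354.8 and 392.2 in the knockouts and 220.4 and 194.4 in the controls (0.87 ± 0.13, adjusted p = 0.00469), a call lost without control 2.

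The neutral amino acid exchanger Slc1a4 (0.95 ± 0.21, adjusted p = 0.113) and Slc7a7, a partner of Slc3a2 (0.99 ± 0.23, adjusted p = 0.155), did not pass the test. Slc38a2, a glutamine carrier, was at 5498.6, 5800.9 and 6277.5 in the knockouts and 5399.5 and 5062.0 in the controls (0.16 ± 0.08, adjusted p = 0.999). Thus the members of 1 transporter list ran from no detectable difference to rises above 4 on the log2 scale.

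Of the cytosolic aminoacyl-tRNA synthetases, which load amino acids onto tRNAs, some rose and others graded down to 0. Of 21 tested, 7 rose, by 0.55 to 0.86: Cars (cysteine), Lars (leucine), Sars (serine), Nars (asparagine), Aars (alanine), Iars (isoleucine) and Gars (glycine). Sars had 1702.9, 1716.7 and 1864.7 in the knockouts and 1020.2 and 1128.3 in the controls (0.71 ± 0.08, adjusted p = 0.000488), the 1 synthetase called in every fit that left out a library. Cars had 720.0, 851.8 and 889.4 in the knockouts and 467.2 and 430.6 in the controls (0.86 ± 0.11, adjusted p = 0.00112), and lost the call without control 2. Lars lost it without control 1 or control 2, Nars, Aars and Gars without these or knockout 2, and Iars without these, knockout 2 or knockout 3. Mars (0.44 ± 0.10, adjusted p = 0.112), Tars (0.39 ± 0.10, adjusted p = 0.2) and Yars (0.47 ± 0.12, adjusted p = 0.219), for methionine, threonine and tyrosine, stood above the controls without a call. Named after their values were seen, Eprs, for glutamate and proline, was at 0.30 ± 0.08 (adjusted p = 0.419), and Vars, Dars, Kars, Qars, Rars, Hars, Farsa, Farsb and Wars lay between -0.05 and 0.13, each with an adjusted p of 0.999. The list's median was 0.30. In contrast, 0 of 17 mitochondrial synthetases were called and their median was 0.01, with Sars2, the mitochondrial serine enzyme, at -0.27 ± 0.15 (adjusted p = 0.999) and Nars2 and Rars2 at 0.19 ± 0.15 and 0.17 ± 0.11 (adjusted p = 0.999 each).

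**Figure D3:**
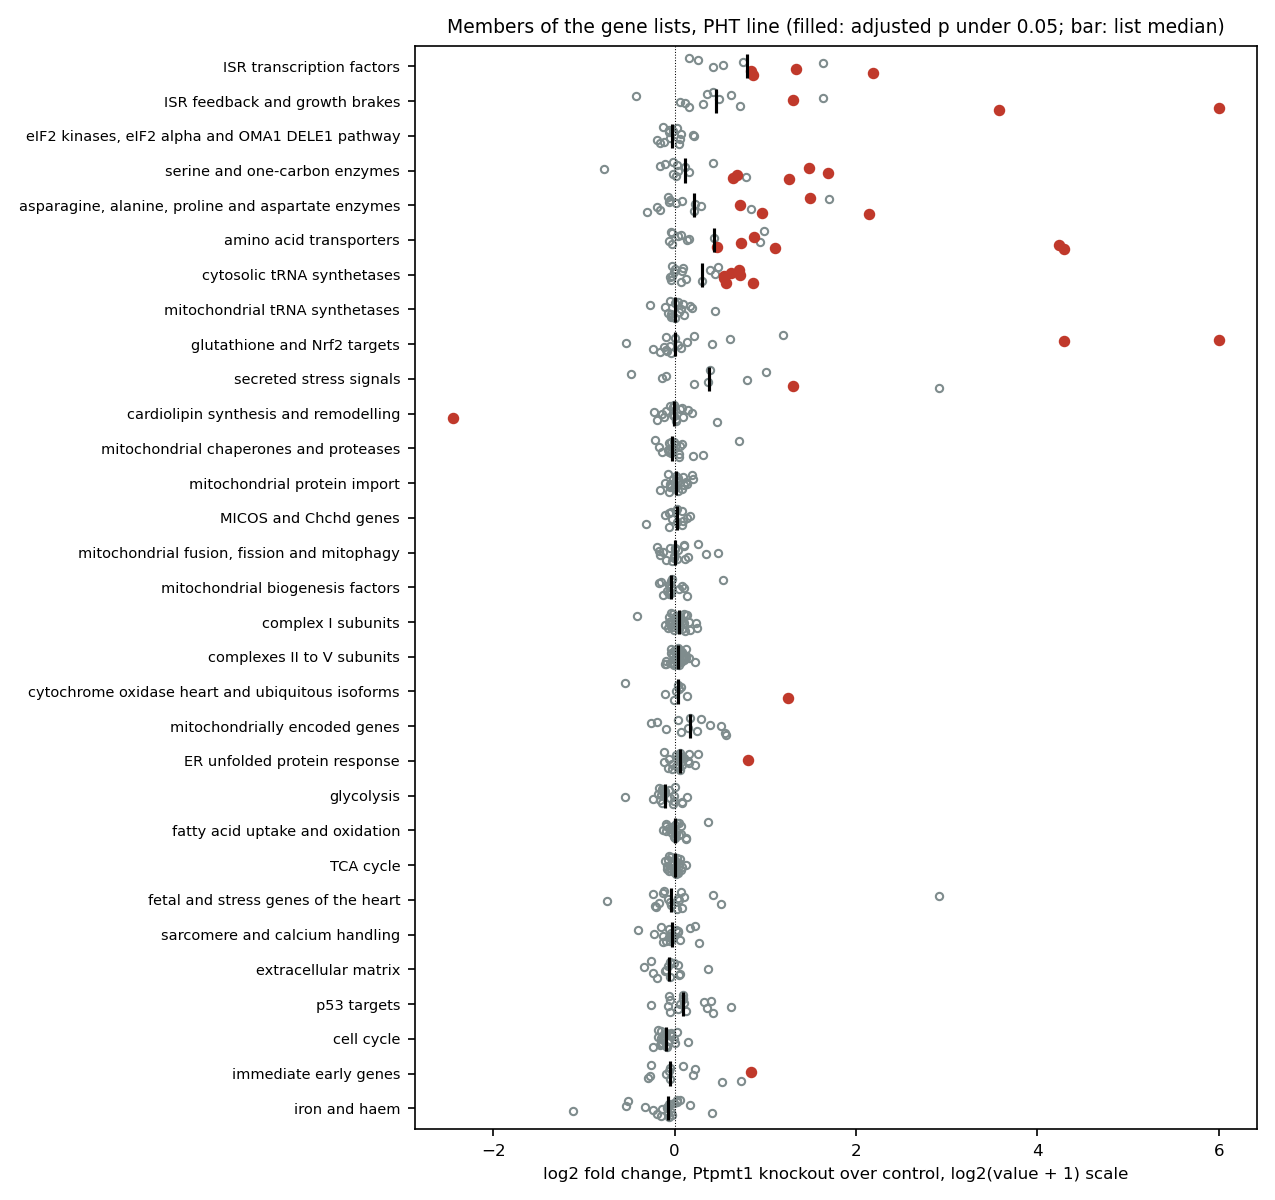
Log2 fold change of the Ptpmt1 knockout over control (horizontal axis, log2(value + 1) scale) for every tested member of each gene list in the PHT line. Filled red points are called genes, open grey points are not, and the bar is the list median: transcription factors of the ISR have a median of 0.80, mitochondrial tRNA synthetases 0.01 and the TCA cycle 0.0.

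Glutathione and Nrf2 target genes gave 2 rises among 19 tested, with a median of 0.01, and both rises, Slc7a11 and Chac1, are also ISR genes. Mgst1, a membrane-bound glutathione transferase, was above both controls in all knockouts, at 148.2, 130.6 and 157.1 against 56.5 and 69.2, and missed the threshold (1.20 ± 0.25, adjusted p = 0.0739). Hmox1, the haem oxygenase induced by Nrf2, was at 0.41 ± 0.21, and Gpx1, a glutathione peroxidase, at -0.24 ± 0.12 (adjusted p = 0.999 each). Of the secreted stress signals, 1 of 10 tested rose (Stc2), and the median was 0.38. Gdf15, a circulating marker of mitochondrial disease, had 16.2, 31.4 and 61.0 in the knockouts and 7.54 and 1.19 in the controls. All knockouts stood above the controls, but the libraries of each group were far apart and the gene was not called (2.91 ± 0.75, adjusted p = 0.252). Fgf21, the other hormone known from muscle with mitochondrial disease, was at 0 in all 5 libraries. Angptl6 (0.80 ± 0.45), Fgf12 (1.0 ± 0.68) and Vegfa (0.21 ± 0.09) had an adjusted p of 0.999 each.

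The genes that sense stress and phosphorylate eIF2 were not called at the RNA level: 0 of 14, with a median of -0.03. Eif2ak1, which encodes Hri, had 630.3, 619.4 and 517.2 in the knockouts and 548.2 and 590.4 in the controls, and the groups overlapped (0.04 ± 0.11, adjusted p = 0.999). Eif2ak4, which encodes the uncharged-tRNA sensor Gcn2, was lower in all knockouts, at 609.2, 618.7 and 617.2 against 709.3 and 695.4 in the controls, without a call (-0.19 ± 0.10, adjusted p = 0.999). Dele1 was at -0.13 ± 0.08, and Eif2b3, a subunit of the exchange factor of eIF2, at 0.21 ± 0.13 (adjusted p = 0.999 each). Oma1 (-0.02 ± 0.25) and Eif2s1, the alpha subunit of eIF2 (0.06 ± 0.10), named after their values were seen, had an adjusted p of 0.999 each. RNA levels do not measure the activity of these kinases or the protease.

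Cardiolipin synthesis and remodelling had 1 called member of 19, the targeted Ptpmt1, and a median of -0.01. Pgs1, which makes the substrate of Ptpmt1, had 558.1, 542.8 and 507.2 in the knockouts and 535.1 and 527.2 in the controls (0.01 ± 0.10, adjusted p = 0.999). Crls1, the cardiolipin synthase that acts after Ptpmt1, had 209.3, 263.9 and 235.1 in the knockouts and 201.6 and 240.9 in the controls (0.09 ± 0.15, adjusted p = 0.999). The symbol Taz, used for the cardiolipin remodelling enzyme tafazzin, had 463.4, 466.3 and 417.2 in the knockouts and 492.7 and 481.9 in the controls (-0.12 ± 0.10, adjusted p = 0.999). Pnpla8, a mitochondrial phospholipase, was at 0.19 ± 0.09, Prelid3b at 0.15 ± 0.10 and Abhd18 at -0.22 ± 0.16 (adjusted p = 0.999 each).

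Other mitochondrial lists stayed close to the median of all genes. Chaperones and proteases had 0 calls of 20 and a median of -0.03. Hspa9, the mitochondrial Hsp70, had 7316.1, 7817.7 and 8346.4 in the knockouts and 5879.0 and 6762.9 in the controls (0.31 ± 0.09, adjusted p = 0.493), and Hspe1, the co-chaperonin, was at 0.20 ± 0.11 (adjusted p = 0.999). Hspd1, Lonp1 and Clpp, the chaperonin and 2 matrix proteases, named after their values were seen, were at 0.05, 0.05 and -0.04. Protein import (0 of 22, median 0.01), cristae organisers (0 of 13, 0.02), fusion, fission and mitophagy (0 of 20, 0.0) and biogenesis factors (0 of 17, -0.04) gave no calls. Pink1, the mitophagy kinase, was at 0.35 ± 0.12 (adjusted p = 0.826), and Ppargc1a, a coactivator of mitochondrial biogenesis, at 0.13 ± 0.09 (adjusted p = 0.999). The mitophagy receptor Bnip3l was at -0.17 ± 0.08 and Polg, the polymerase of mitochondrial DNA, at -0.18 ± 0.09 (adjusted p = 0.999 each). Of the import and cristae genes, Tomm40, the outer membrane channel, was at -0.16 ± 0.08, Timm23 of the inner membrane at 0.13 ± 0.11, Chchd10 at 0.17 ± 0.11 and Chchd6 at -0.32 ± 0.18 (adjusted p = 0.999 each). Of 36 nuclear subunits of complex I, 24 were above 0, with a median of 0.04, and of 37 subunits of complexes II to V 26 were above 0, with a median of 0.04. None of either was called. Ndufs5, a complex I subunit, was the member furthest below 0, at 242.9, 314.5 and 433.2 in the knockouts and 452.2 and 409.1 in the controls (-0.42 ± 0.21, adjusted p = 0.999). Uqcrq of complex III was at 0.23 ± 0.12, and Cox5a and Cox5b of complex IV at 0.16 ± 0.09 and 0.12 ± 0.08 (adjusted p = 0.999 each).

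One respiratory chain gene did rise. Cox6a2 (chr7:128205435-128206387, minus strand) encodes the heart and muscle isoform of cytochrome oxidase subunit VIa. It had 584.2, 533.3 and 612.2 in the knockouts and 261.9 and 223.0 in the controls (1.25 ± 0.14, adjusted p = 0.000488), and the call held in every fit that left out a library. The ubiquitous isoform Cox6a1, named after its values were seen, was not called, at 1408.9, 1449.4 and 1505.6 in the knockouts and 1590.1 and 1351.4 in the controls (-0.01 ± 0.09, adjusted p = 0.999). The other tissue isoforms were not called: Cox7a1 of heart was at 0.13 ± 0.14, its ubiquitous counterpart Cox7a2 at -0.10 ± 0.09 and Cox4i2 at -0.55 ± 0.34 (adjusted p = 0.999 each). Cox6a2 was thus the 1 call among 9 isoform genes, whose median was 0.04.

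Transcripts of the mitochondrial genome took 1.82%, 1.76% and 1.87% of all values in the knockouts and 1.25% and 1.58% in the controls. Of these 13 genes 10 were above 0, with a median of 0.17, and 0 were called. The difference between the 2 controls was wider than that between control 2 and any knockout. The labels give nuclear RNA as the molecule, and how much mitochondrial RNA each library kept is not given. mt-Nd2 had 10178.8, 9077.0 and 10247.1 in the knockouts and 5783.8 and 7708.8 in the controls (0.56 ± 0.12, adjusted p = 0.101). mt-Nd1 was at 0.56 ± 0.14 (adjusted p = 0.211) and mt-Nd6, on the other strand, at 0.51 ± 0.14 (adjusted p = 0.31).

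The unfolded protein response of the endoplasmic reticulum was not called beyond 1 member of 25, and the median was 0.06. Herpud1, a membrane protein of ER-associated degradation, had 685.1, 674.1 and 709.3 in the knockouts and 393.8 and 394.8 in the controls. Both groups were tight, and the rise of 0.80 ± 0.10 (adjusted p = 0.00144) was called in every fit that left out a library. Its promoter holds the C/EBP-ATF element shown above, and other forms of the ER stress element were not searched for in it. Hspa5, the main ER chaperone and named after its values were seen, was at 9149.8, 9431.2 and 9125.7 in the knockouts and 10318.6 and 7605.0 in the controls (0.06 ± 0.12, adjusted p = 0.999). Atf6, an ER stress sensor, was at 0.16 ± 0.09, and Dnajb9, a target of Xbp1, at 0.23 ± 0.14 (adjusted p = 0.999 each).

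Heart genes and energy metabolism gave no call. Among 19 fetal and stress genes of the heart, whose median was -0.04, Nppa, the atrial natriuretic peptide, had 12383.7, 12040.7 and 16816.8 in the knockouts and 14695.1 and 12104.1 in the controls (0.03 ± 0.15, adjusted p = 0.999). Nppb, the brain natriuretic peptide, had 837.1, 1487.0 and 1428.6 in the knockouts and 1200.1 and 1091.4 in the controls (0.08 ± 0.19, adjusted p = 0.999). In both the groups overlapped. Myh7, the myosin heavy chain of the fetal mouse heart, had 122462.8, 111957.3 and 144462.0 in the knockouts and 167178.2 and 125359.6 in the controls (-0.21 ± 0.19, adjusted p = 0.999). Myh6, the adult isoform, had 49800.1, 50702.1 and 37600.1 in the knockouts and 40188.2 and 35692.0 in the controls (0.27 ± 0.14, adjusted p = 0.999). Sarcomere and calcium handling genes (0 of 20, median -0.03), fatty acid uptake and oxidation (0 of 23, -0.0), the TCA cycle (0 of 22, 0.0) and extracellular matrix (0 of 14, -0.06) had no call. Named by their rank in these lists, the calcium store protein Casq2 was at -0.40 ± 0.23, the Z-disc protein Actn2 at -0.23 ± 0.11, Gja1, the gap junction protein connexin 43, at 0.22 ± 0.09 and Postn, a matrix protein of activated fibroblasts, at -0.23 ± 0.14 (adjusted p = 0.999 each). The fatty acid transporter Cd36 was at 0.12 ± 0.09, the thioesterase Acot2 at 0.37 ± 0.16 and Sucla2 of the TCA cycle at 0.13 ± 0.08 (adjusted p = 0.999 each).

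Some lists had most members below 0 without a call, among them the red cell markers described above, iron and haem genes (16 of 21), mitochondrial biogenesis factors (12 of 17) and extracellular matrix (10 of 14). Of 21 glycolysis genes 17 were below 0, with a median of -0.11. Pfkl, a phosphofructokinase subunit, had 3302.4, 2917.2 and 3146.3 in the knockouts and 3836.7 and 3535.3 in the controls (-0.24 ± 0.08, adjusted p = 0.799), and Pfkfb1, which sets the level of its activator, was at -0.55 ± 0.20 (adjusted p = 0.845). Of 22 cell cycle genes 19 were below 0, with a median of -0.10. Mki67, a marker of cycling cells, had 7479.3, 7841.0 and 6958.8 in the knockouts and 8346.1 and 9183.0 in the controls (-0.24 ± 0.10, adjusted p = 0.994). Birc5 and Plk1, both of mitosis, were at -0.19 ± 0.10 and -0.18 ± 0.10 (adjusted p = 0.999 each). Over all genes tested 50.9% were above 0. The 17 p53 targets (median 0.09), 5 interferon genes (0.01) and 13 immediate early genes (-0.05, with Atf3 as the 1 call) showed no other call. Trp53inp1, a p53 target, was at 0.33 ± 0.10 (adjusted p = 0.666), and Fos, Myc and Egr1 were at 0.52 ± 0.24, -0.26 ± 0.13 and -0.28 ± 0.19 (adjusted p = 0.999 each). The iron and haem list (0 of 21, median -0.08) had Alas2, the red cell enzyme of haem synthesis, at 442.2, 436.2 and 90.0 in the knockouts and 634.0 and 504.5 in the controls (-1.12 ± 0.49, adjusted p = 0.999). Alas2 is also among the red cell markers summed above, so its low value in knockout 3 is part of that sum.

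There were 12 called genes in none of the lists, and several encode proteins that act beside the ISR. Pck2, the mitochondrial PEP carboxykinase, had 749.9, 886.0 and 1005.4 in the knockouts and 500.2 and 475.9 in the controls (0.84 ± 0.13, adjusted p = 0.00815). Xpot, which exports tRNA from the nucleus, had 2092.8, 2208.9 and 2249.9 in the knockouts and 1481.8 and 1680.6 in the controls (0.47 ± 0.08, adjusted p = 0.0216). Eif2s2, the beta subunit of eIF2, had 2173.8, 2351.8 and 2344.9 in the knockouts and 1588.2 and 1753.3 in the controls (0.46 ± 0.09, adjusted p = 0.0362). The rises of Xpot and Eif2s2 were small, while Pck2 was highest in knockout 3 and lowest in knockout 1. Xpot and Eif2s2 lost the call without any 1 of the 5 libraries, and Pck2 without control 1, control 2 or knockout 2. Hax1, a mitochondrial protein that protects from apoptosis, had 423.5, 489.5 and 534.2 in the knockouts and 294.8 and 311.3 in the controls (0.66 ± 0.12, adjusted p = 0.0273), lost without control 1, control 2, knockout 2 or knockout 3. Fam129a, also known as Niban, had 335.1, 438.9 and 612.2 in the knockouts and 180.9 and 237.4 in the controls (1.11 ± 0.20, adjusted p = 0.023), lost without control 1, control 2 or knockout 2. Rims3, of a family that acts at synaptic vesicle release sites, had 388.7, 354.8 and 313.1 in the knockouts and 170.5 and 202.8 in the controls (0.91 ± 0.14, adjusted p = 0.00815), lost in every such fit except that without knockout 3.

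Low genes gave some of the largest fold changes. Trim66, a tripartite motif protein, had 92.2, 105.3 and 110.0 in the knockouts and 0.0 and 2.39 in the controls, that is 338 reads against 2 and a ratio of 98.3 (exact 95% interval 27.0 to 815). Its log2 fold change of 5.81 ± 0.57 (adjusted p = 8.89e-05) was 4.93 without control 1 and 6.69 without control 2 and stayed called. Cyb5r2, a cytochrome b5 reductase, had 79.7, 80.7 and 91.0 in the knockouts and 5.65 and 11.9 in the controls (3.19 ± 0.47, adjusted p = 0.00449), a call lost without control 1 or knockout 2. Gstm6, a glutathione transferase of the mu family, had 18.7, 17.8 and 20 in the knockouts and 1.88 and 0.0 in the controls, 61 reads against 2 and a ratio of 17.7 (exact 95% interval 4.71 to 150). Near-identical relatives of Gstm6 may share reads with it. Its fold change of 3.54 ± 0.68 (adjusted p = 0.0378) was 4.31 without control 1 (adjusted p = 0.0719) and 2.78 without control 2 (adjusted p = 0.625), and the call was lost without any 1 library. The noncoding Gm49448 (chr16:9079396-9137444, plus strand, a lincRNA in GENCODE) had 24.9, 21.2 and 15 in the knockouts and 0.0 in both controls, 66 reads against 0, at least 12.8-fold higher with a floor of 3 reads over the control group (4.39 ± 0.76, adjusted p = 0.0182). That call was lost without any 1 library.

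The remaining called genes were uneven across the line as a whole. Gm9008 (chr6:76495432-76497784, minus strand, protein coding in GENCODE) had 64.8, 59.5 and 61.0 in the knockouts and 4.71 and 3.58 in the controls (3.62 ± 0.42, adjusted p = 0.000497), called in every fit that left out a library. It was also high in the doubles, at 58.4 and 98.1, against 10.1 and 3.89 in the Hri knockouts. AC149090.1, on the unplaced scaffold JH584304.1 of the assembly, had 539.4, 433.4 and 523.2 in the knockouts and 1935.8 and 1631.7 in the controls (-1.84 ± 0.32, adjusted p = 0.0182), lost without control 1, control 2 or knockout 2. In the doubles it was at 1668.7 and 512.3, against 550.9 and 382.4 in the Hri knockouts, so high and low libraries occurred with and without the Ptpmt1 knockout. Zfp979 (chr4:147611937-147642513, minus strand), a zinc finger gene of a cluster of near-identical copies, had 47.3, 58.8 and 55.0 in the knockouts and 183.7 and 188.5 in the controls (-1.78 ± 0.34, adjusted p = 0.0349), a call lost without any 1 library. It was at 44.3 and 54.3 in the doubles, against 54.2 and 161.2 in the Hri knockouts. Another gene of the cluster, Zfp990 (chr4:145510759-145539188, plus strand), had 2.49, 0.0 and 3.0 in the knockouts and 94.2 and 110.9 in the controls, without a call (-5.42 ± 1.32, adjusted p = 0.189). Zfp990 was at 0.0 in both doubles, against 0.0 and 83.3 in the Hri knockouts. In the FST line it went the other way, also without a call (4.45 ± 1.41, adjusted p = 0.187). Copies of such clusters may share reads.

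**Figure D4:**
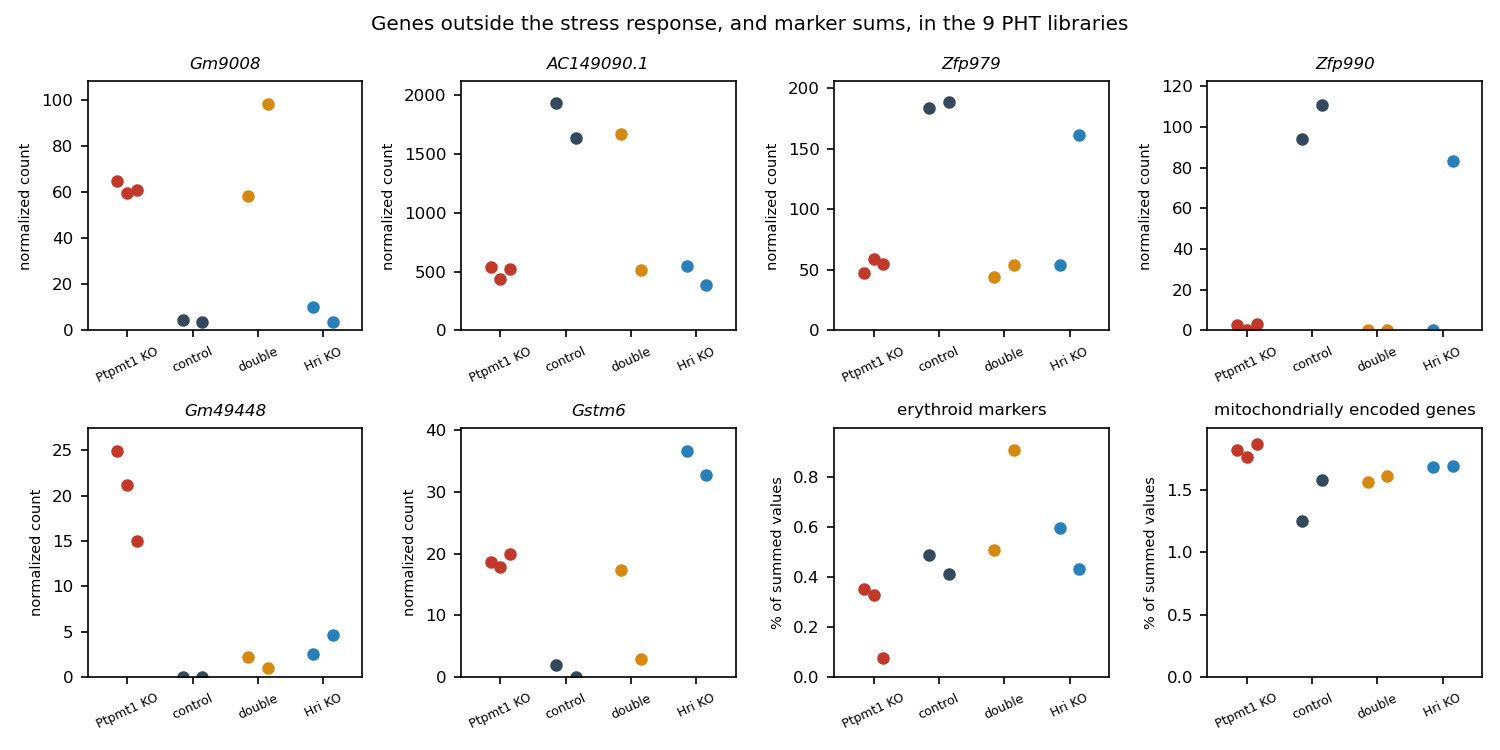
Normalized counts (vertical axes, from 0) of 6 genes, and the summed share of red cell markers and of mitochondrially encoded genes, in the 9 PHT libraries: Ptpmt1 knockout, control, double and Hri knockout from left to right. Gm9008 is high in the 3 knockouts and 2 doubles, AC149090.1 is high in both controls and 1 double, and red cell markers are lowest in knockout 3 at 0.0748%.

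Whether the response to the Ptpmt1 knockout differed with the Hri label was asked in the same fit, as the effect in doubles over Hri knockouts minus the effect described above. The label itself could not be checked: Eif2ak1, the gene of Hri, was at 475.5 and 544.7 in the doubles, against 416.0 and 389.4 in the Hri knockouts, and at 548.2 and 590.4 in the controls. The doubles thus stood nearer the controls than the Hri knockouts did, and a deletion of part of the transcript need not show in a value per gene. Hri knockout and double below are names of labels. That difference was called for 18 genes, 0.12% of the 14965 tested, 17 lower and 1 higher, with 694 genes at an unadjusted p under 0.05. Among the 42 risen genes all 42 differences were negative and 14 were called. In the doubles over Hri knockouts the 42 had a median of -0.0, with 19 above 0. Asns was at 222.6 and 310.5 in the doubles, against 225.6 and 307.6 in the Hri knockouts, so its rise was not seen there (difference of effects -2.14 ± 0.26, adjusted p = 0.00315). Atf5 was at 162.1 and 175.2 in the doubles, against 157.6 and 213.4 in the Hri knockouts (-2.31 ± 0.26, adjusted p = 0.00186). Atf4 differed by -0.87 ± 0.17 (adjusted p = 0.0926), which was not called. Gm9008 did not follow these genes, with a difference of effects of -0.24 ± 0.63 (adjusted p = 0.998). Among the 19 above 0, Cox6a2 was at 0.53 ± 0.16 and Slc6a9 at 0.42 ± 0.14 in doubles over Hri knockouts. Their differences of effects were not called (adjusted p = 0.797 and 0.998). All 4 libraries with the Hri label had the male pattern, while 4 of the 5 others had the female one, so the sex pattern moved with the Hri label. With a term for sex in the fit 17 differences were called, 12 of them among the 18. Leaving out knockout 1 gave the same counts. Only the Ptpmt1 knockout group held both sex patterns, through knockout 1, so the term acts as leaving that library out. It cannot separate sex from the Hri label. The count was 2 without control 1, 7 without knockout 2, 8 without control 2 and 9 without Hri knockout replicate 2. Since the same controls and knockouts enter both, a difference of effects for a gene chosen by its rise here is not independent of that rise.

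**Figure D5:**
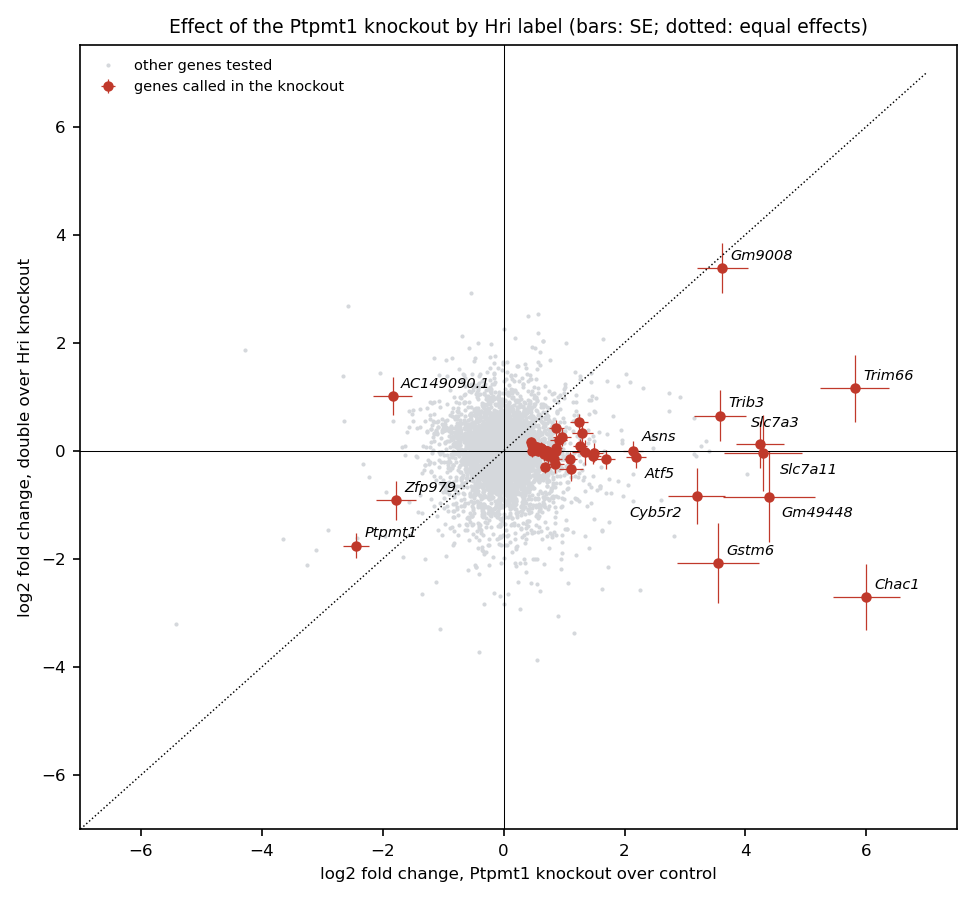
Log2 fold change of the Ptpmt1 knockout over control (horizontal axis) and of doubles over Hri knockouts (vertical axis) for all 14965 genes tested (grey) and the 45 called genes (red, bars are SE), on the log2(value + 1) scale. Most red points to the right of 0 lie near 0 on the vertical axis, with a median of -0.0 over the 42 risen genes, while Gm9008 and Ptpmt1 lie nearer the dotted line of equal effects.

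In the FST line, whose table was normalized separately and shares no library with this one, the same contrast gave 45 higher genes, 0.324% of 13896 tested. All 42 genes risen here were tested there, 40 were above 0 and 28 were called higher. The 14 not called there included Ddit3 (1.10, adjusted p = 0.243), Slc7a5 (0.92, adjusted p = 0.105), Herpud1 (0.75, adjusted p = 0.122) and Shmt2 (0.64, adjusted p = 0.127). They also included Cox6a2, at 0.20 ± 0.35 (adjusted p = 0.878), and Atf3, at 0.09 (adjusted p = 0.921). The 2 below 0 were Gm49448 (-0.42, adjusted p = 0.903) and Gm9008 (-1.17, adjusted p = 0.801). Of the falls, Ptpmt1 was at -2.17 (adjusted p = 1.12e-05), AC149090.1 at 0.43 (adjusted p = 0.384) and Zfp979 at 2.15 (adjusted p = 0.0336), in the opposite direction. All 3 knockouts and 1 of the 3 controls of that line had the male pattern. The difference between the 2 lines was not tested.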

How the data were processed

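The values are a normalized signal per gene and library, as deposited by the authors in 1 table per mouse line. The submitters' processing notes name STAR 2.5.3a, DESeq2 1.12.4 and mm10, without roles. For the counter, annotation and strand setting, the answer is not given in the sources used here. Of genes by symbol, the PHT table holds 32245, 26 of them turned into dates, and 0 columns without a sample. Within each column the deposited signal was whole multiples of 1 step for 100% of values (tolerance 0.1 reads), so reads were recovered for depths and count tests. In knockout 3 the step is nearly 1.

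Genes reaching 10 in at least 2 of 9 columns were tested with limma 3.58.1 (R 4.3.3, trend, two-sided) on log2(value + 1), in 1 fit of all 4 PHT groups, with Benjamini-Hochberg adjustment over 14965 genes and a threshold of 0.05. The FST table, filtered at 10 in at least 3 columns, had its own fit. Alternatives were pseudocounts of 0.5 and 5, no filter and a filter at 50, a fit of the 5 libraries alone, TMM rescaling, edgeR 4.0.16 (quasi-likelihood) and DESeq2 1.42.0 on recovered reads, a sex term, no trend, and leaving out each library. The scripts were tested on simulated counts. The count tests called 45 genes with edgeR and 69 with DESeq2.

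Gene lists are described by counts and medians, and exact intervals and floors cover counting error only. The members, lists and rules were chosen with earlier results of these data known. The rule named every called gene, with values in each library for Ptpmt1, a panel of ISR, cardiolipin and cardiac genes, the 12 largest rises, the falls and called genes in no list, plus 3 further genes per list at most, taken by unadjusted p. Any gene outside this rule is marked in the text. Gene coordinates are from GENCODE on GRCm38, and promoters from RefSeq on GRCm38.p6.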

Additional observations from a re-analysis of the deposited data

Results flagged for a closer look

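The effect of the Ptpmt1 knockout differed between the PHT libraries with and without the Hri knockout label for 15 of the genes named above, by the interaction test in limma across all genes. Each value is the effect in doubles over Hri knockouts minus the effect in knockouts over controls, on the log2(value + 1) scale. All 15 were also called in knockouts over controls, and those libraries enter the difference. A difference of opposite sign to that call is therefore not independent of it. Over all 14965 genes tested 18 differences were called, which is 0.12%. Among regulators it was -8.71 for Chac1 and -2.31 for Atf5. Among amino acid and one-carbon enzymes it was -2.14 for Asns, -1.84 for Mthfd2, -1.58 for Aldh1l2, -1.53 for Bcat1, -1.18 for Phgdh and -0.99 for Shmt2. Among transporters it was -4.11 for Slc7a3 and -1.25 for Slc7a5, and it was -0.71 for the synthetase Sars and -0.87 for Herpud1. Outside the lists it was -4.03 for Cyb5r2, -5.63 for Gstm6 and 2.85 for AC149090.1. The adjusted p ran from 0.00049 for Chac1 to 0.0495 for Gstm6 and Herpud1. Chac1 was at 1.08 and 0.0 in the doubles, against 10.1 and 7.01 in the Hri knockouts. Thus -2.71 ± 0.61 of its difference came from these low libraries. Gstm6 was at 17.3 and 2.86 in the doubles, against 36.6 and 32.7 in the Hri knockouts, so its Hri knockouts were above all other libraries. The Hri label could not be checked, since Eif2ak1 averaged 510.1 in the doubles, against 402.7 in the Hri knockouts, and 569.3 in the controls. The sex pattern moved with the Hri label, and its part in single genes was not tested. The fit with a sex term cannot separate sex from that label. No sample was tested for standing apart within its group, since each PHT group has under 4 libraries.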

How the results depend on the processing

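No paired analysis was possible because the labels give no replicate number shared between groups. With 3 against 2 libraries, which genes pass depends on the fit, while 0 of the 45 called genes changed direction under any planned setting that gave them a value. Genes near 0 that were not called could cross it: Nppa ran from -0.13 to 0.17 and Oma1 from -0.34 to 0.31 when a library was left out. The 45 calls (42 higher, 3 lower) numbered 21 to 42 when a library was left out (19 to 39 higher, 1 to 4 lower). They numbered 69 with DESeq2 (63 higher, 6 lower), 59 with only the 5 libraries compared (53 and 6), and 8 without the intensity trend in the prior (7 and 1: Atf5, Chac1, Cyb5r2, Gm49448, Gm9008, Slc7a3 and Trim66 higher, Ptpmt1 lower). The other planned settings gave 42 to 46. With a sex term, which rests on knockout 1 alone, the calls of Eif2s2, Gm49448, Gstm6, Xpot and Zfp979 were lost. With edgeR only that of Gstm6 was lost. The 18 interaction calls numbered 2 to 22 when a library was left out. Ptpmt1 stayed called throughout, at -2.66 to -2.32. The cause of these changes was not tested, and a fit that leaves out a library also has fewer libraries. Genes with few control reads (Chac1, Trim66, Gstm6, Gm49448) are limited by depth.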

Other observations

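Markers of the other cell types of the heart were not called in the PHT knockouts in any list. Kcnj3, an atrial potassium channel, was at 386.2, 367.8 and 286.1 in the knockouts and 218.5 and 217.1 in the controls (0.66 ± 0.17, limma adjusted p = 0.239), and the 7 tested atrial markers had a median log2 fold change of 0.10. Of 7 epicardial markers 6 were above 0, with a median of 0.20, and Aldh1a2, which makes retinoic acid, was at 407.3, 462.8 and 441.2 in the knockouts and 349.5 and 300.6 in the controls (0.43 ± 0.11, adjusted p = 0.291). Of 8 endothelial markers 7 were above 0, with a median of 0.11, and Tek, the angiopoietin receptor, was at 0.20 ± 0.08 (adjusted p = 0.999). Of 7 macrophage markers 5 were below 0, with a median of -0.28, and Lyz2 was at 191.8, 268.0 and 296.1 in the knockouts and 374.9 and 293.4 in the controls (-0.42 ± 0.19, adjusted p = 0.999). The lymphocyte markers Cd3e, Cd3d and Ms4a1 were at 0 in all 5 libraries, as was the macrophage gene Cd163. Of 8 mural markers, of cells in vessel walls, 4 were above 0 and 4 below, with a median of 0.03. The smooth muscle myosin Myh11 was low and uneven, at 46.1, 15 and 7.0 in the knockouts and 3.77 and 3.58 in the controls (1.96 ± 0.73, adjusted p = 0.907). Cspg4, a more abundant mural marker, was at -0.23 ± 0.12 (adjusted p = 0.999).

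Besides the genes above, the effect of the knockout differed by Hri label for 3 genes named after their values were seen. Extl1, a glycosyltransferase of the exostosin family, was at 42.2 and 32.4 in the doubles and 95.8 and 117.6 in the Hri knockouts, and at 153.2, 199.6 and 210.1 in the Ptpmt1 knockouts and 131.9 and 128.8 in the controls (difference of effects -2.01 ± 0.30, limma adjusted p = 0.0141). Rec8, a meiotic cohesin subunit, was at 183.7 and 103.8 in the doubles and 423.6 and 327.8 in the Hri knockouts, and at 130.8, 179.8 and 190.1 in the Ptpmt1 knockouts and 103.6 and 96.6 in the controls (-2.14 ± 0.34, adjusted p = 0.0201). The clone 2410018L13Rik was at 63.8 and 8.57 in the doubles and 137.4 and 158.1 in the Hri knockouts, and at 81.0, 70.4 and 97.0 in the Ptpmt1 knockouts and 14.1 and 19.1 in the controls (-4.83 ± 0.80, adjusted p = 0.0287).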
